A study of Mus musculus with 2 samples.

Results

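The endothelin genes described here are Edn1 and Edn2, which encode the secreted peptides endothelin 1 and endothelin 2, and Ednra and Ednrb, which encode the endothelin receptors A and B. They were chosen by name, with no threshold on a measured value, and all 4 were listed in both libraries, among 27708 genes in the PS-MP library and 28214 genes in the control library. The data are single-cell mRNA counts from mouse ovary, made with the BD Rhapsody system, in which single cells share a microwell with a barcoded bead. PS-MP ovaries came from female ICR mice, an outbred stock, that were given 0.1 µm polystyrene microplastics by daily gavage, 1 mg in 100 µL per mouse, for 35 days starting at 3 weeks of age. Control ovaries came from female ICR mice gavaged with ddH2O over the same time; this group was taken from the library's title, and its treatment label reads WT. All ovaries were taken at 8 weeks of age, 16 mice are stated with no clear split by group, no stage of the oestrous cycle is given, and cells could not be tied to mice. Each group is therefore 1 library: every interval below is a 95% interval for counting error alone, no comparison has a test, and a difference between the libraries cannot be told apart from a difference between the mice or cycle stages that each library happened to hold.

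Endothelins are short peptides cut from a longer precursor by endothelin-converting enzymes. Receptor A on smooth muscle raises calcium and causes contraction, while receptor B on endothelium releases nitric oxide and prostacyclin and also clears the peptide. In the mouse ovary Edn2 is known as a gene that granulosa cells switch on briefly around ovulation, downstream of the progesterone receptor and hypoxia, and endothelin 2 is known to contract the tissue around the follicle. Edn1 is known mainly as an endothelial product.

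The files held 15056 PS-MP cells and 15373 control cells with 145474989 and 160257194 UMIs in all (unique molecular identifiers, which let each captured molecule be counted once), and the libraries shared 3 cell index labels. After filtering, 14412 PS-MP cells and 14538 control cells remained, with medians of 8643 and 9502.5 UMIs, in 18 clusters. Clusters were named from marker genes, and none of the endothelin genes was used for clustering or as a marker. Levels are in CPM, the UMIs of a gene per 1000000 UMIs of the same cells, so that values of different genes are not compared with each other. Where sizes are counted, a gene was called higher or lower when it reached 20 CPM in at least 1 library and its ratio was at least 1.5-fold. Luteal-like cells of the 2 libraries lay mostly in different clusters. Cluster 6 held 1902 PS-MP cells and 9 control cells, and cluster 11 held 129 PS-MP cells and 226 control cells. Cluster 6 reached 20 CPM in 11 of 11 luteal markers but was led by other genes, and cluster 11 was led by Akr1c18, which breaks progesterone down, and Ptgfr, the prostaglandin F receptor. Cluster 3, with 1716 PS-MP cells and 1672 control cells, reached 20 CPM in 12 of 13 granulosa markers but was left unnamed, because none of these markers was among its 10 leading genes and a marker of another class was.

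Edn2 was the endothelin gene that differed most between the libraries, and nearly all of the difference lay in cluster 6. Over all kept cells there were 7628 Edn2 UMIs in the PS-MP library, or 54.8 CPM (53.6 to 56.0), against 257 UMIs in the control library, or 1.69 CPM (1.49 to 1.90). The ratio of PS-MP to control was 32.5 (28.7 to 37.0), and 3.51% of the 7663 genes at 20 CPM or more were called in either direction in all cells, 2.02% as higher. Cluster 6 held 93.3% of the PS-MP Edn2 UMIs, and without it the levels were 4.33 CPM in PS-MP cells and 1.69 CPM in control cells, a ratio of 2.57 (2.208 to 2.997). The 250 bases before the start of Edn2, taken from RefSeq (build GRCm38.p6, chr4:120160956-120161205, plus strand), are shown because they are the stretch next to the transcription start of the gene with the largest difference, and capitals mark the single match, on the reverse strand, of the motifs searched.

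Edn2: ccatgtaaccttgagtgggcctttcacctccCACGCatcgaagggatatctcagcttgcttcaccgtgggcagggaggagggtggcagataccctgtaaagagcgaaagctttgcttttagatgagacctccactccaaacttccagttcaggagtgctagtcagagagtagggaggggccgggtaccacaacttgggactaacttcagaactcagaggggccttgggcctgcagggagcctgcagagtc

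The motifs were the hypoxia-response cores ACGTG and GCGTG, the activator protein 1 site TGANTCA, the cyclic AMP response core TGACGT, the GATA factor core GATAA, the nuclear receptor core AGGTCA and the progesterone receptor core TGTTCT, each on both strands. The match was GCGTG, 219 to 215 bases before the start, and 28.2% of 32851 mouse promoters of this length held GCGTG. It is a match of letters only.

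Within the luteal-like class Edn2 stood at 311.4 CPM (304.3 to 318.7) in PS-MP cells and at 14.1 CPM (10.7 to 18.3) in control cells, a ratio of 22.0 (17.0 to 29.1). In luteal-like cells 23.8% of the 7346 genes at 20 CPM or more were called in either direction, and 2 endothelin genes were among them, Edn2 as higher, as were 13.7% of genes, and Ednra as lower, as were 10.1%. Because the libraries filled this class from different clusters, its ratio compares cluster 6 with cluster 11 for the most part. Cluster 6 held 7117 Edn2 UMIs in PS-MP cells, or 333.6 CPM (325.9 to 341.5), and 0 UMIs in the 9 control cells. A floor of 3 counts over those 9 cells would be 21.7 CPM, and the PS-MP level was 15.4 times this assumed floor. The counting interval of the ratio itself began at 12.5. Cluster 11, which both libraries filled, had 104 Edn2 UMIs in PS-MP cells, or 56.1 CPM (45.8 to 68.0), and 57 UMIs in control cells, or 14.6 CPM (11.1 to 19.0). The ratio in cluster 11 was 3.83 (2.75 to 5.39), where 10.9% of genes at 20 CPM or more were called and 4.9% were called higher, and it rested on few cells, with up to 37 UMIs in a single PS-MP cell and up to 29 in a single control cell.

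Edn2 was unevenly spread among cells. An Edn2 UMI was found in 53.2% (50.9 to 55.4) of the 1902 PS-MP cells of cluster 6, at a median depth of 9658 UMIs per cell, and in 39.7% after every cell was thinned to 3500 UMIs. In theca-like cells, taken as background, 2.56% of PS-MP cells and 0.25% of control cells had an Edn2 UMI, at median depths of 7956 and 9788 UMIs. Of the PS-MP cells of cluster 6, 891 had no Edn2 UMI, 341 had 1 or 2, 419 had 3 to 9 and 251 had 10 or more, up to 45, and the tenth of cells with the most Edn2 held 52.2% of its UMIs. Across all classes, 698 PS-MP cells and 23 control cells had at least 3 Edn2 UMIs. Cluster 6 held 670 of those 698 PS-MP cells, while 11 of the 23 control cells lay in cluster 0, a granulosa-like cluster.

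**Figure D1:**
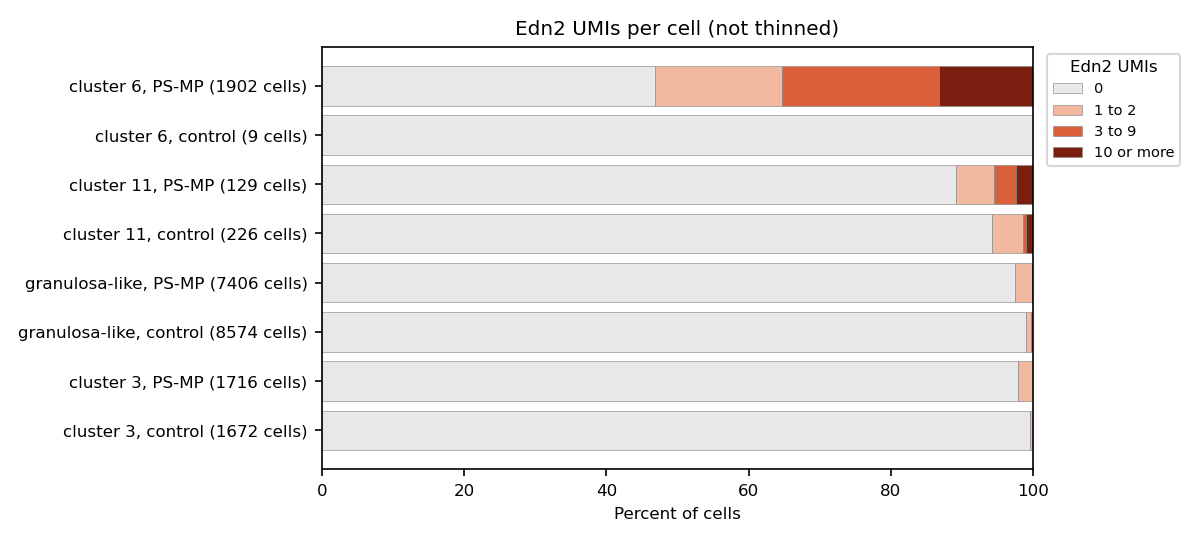
Percent of cells (x axis) with 0, 1 to 2, 3 to 9 and 10 or more Edn2 UMIs, by cell cluster or class and library, before thinning. In PS-MP cells of cluster 6, 53.2% had an Edn2 UMI; the shares elsewhere were small in both libraries.

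Inside PS-MP cluster 6, cells were set apart by their thinned Edn2 counts: 334 cells with 3 or more UMIs, 421 with 1 or 2, and 1147 with 0. Cells with 3 or more were set against cells with 0 by the 20 CPM and 1.5-fold rule, under which 2.93% of 7259 genes were higher and 3.82% lower. All 5 dividing-cell markers were lower in the Edn2-rich cells. Top2a, which untangles replicated DNA, stood at 27.4 CPM in Edn2-rich cells and at 84.4 CPM in cells with 0, and Mki67, a marker of cycling cells, at 5.1 and 39.6 CPM in the same order. Of the progesterone receptor targets at ovulation, 2 of the 5 measured were higher, namely Adamts1, a protease that cleaves versican, at 2323 against 1357 CPM, and the cytokine gene Il6 at 40.2 against 14.4 CPM. Ptgs1, a prostaglandin synthase, stood at 237.0 against 123.6 CPM. Of 8 other ovulation genes 1 was higher and 0 lower, with a median log2 ratio of −0.23: Runx1, a transcription factor induced at ovulation, stood at 509.0 against 333.5 CPM, and the related Runx2 at 595.4 against 807.6 CPM. In the hypoxia list 1 of 11 genes was higher, Ndrg1, at 64.2 against 33.9 CPM. None of the 12 luteal and steroidogenic genes was higher and 1 was lower, Akr1c18, at 46.2 against 102.9 CPM. Median depths before thinning were 8640 UMIs in the Edn2-rich cells and 9803 UMIs in cells with 0, and whether depth plays a part was not tested.

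In cluster 11 the few cells with an Edn2 UMI had less of the gene that led the cluster. Akr1c18 stood at 54.3 CPM in the 14 PS-MP cells with an Edn2 UMI and at 2742 CPM in the 115 without. In control cells it stood at 234.4 CPM in the 13 cells with an Edn2 UMI and at 3574 CPM in the 213 without. Lhcgr, the luteinising hormone receptor, stood at 1211 CPM with and 875.2 CPM without an Edn2 UMI in PS-MP cells and at 1791 and 1434 CPM in control cells. After thinning, fewer cells than these kept an Edn2 UMI. In that smaller split 18.9% of 6582 genes were lower and 8.51% higher by at least 1.5-fold in both libraries. Akr1c18 there stood at 28.6 CPM with and 2067 CPM without Edn2 in PS-MP cells, and at 95.2 and 3145 CPM in control cells. The values with Edn2, 28.6 and 95.2 CPM, are each a single UMI in so few cells. A single UMI thus passed the 20 CPM limit. A gene with no UMI there counted as lower if it reached 20 CPM in the cells without Edn2. Whether these shares exceed counting error in so few cells was not tested.

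Outside the luteal-like class Edn2 was low. Granulosa-like cells had 3.12 CPM (2.72 to 3.55) in PS-MP cells and 1.78 CPM (1.52 to 2.07) in control cells, a ratio of 1.75 (1.43 to 2.16), below the 20 CPM needed for a call. Within them, cluster 0 had like levels in both libraries, 4.67 CPM in PS-MP cells and 4.52 CPM in control cells. Cluster 1 stood at 2.79 CPM in PS-MP cells and at 0.67 CPM in control cells. Blood endothelial-like cells held 24 Edn2 UMIs in the PS-MP library and 0 in the control library, and stromal fibroblast-like cells held 35 and 1. Macrophage or monocyte-like cells had 12.96 CPM in PS-MP cells, where 25 of 33 UMIs came from a single cell, and 2.23 CPM in control cells. The other classes did not exceed 20.2 CPM in PS-MP cells, from 8 UMIs in T, NK or innate lymphoid-like cells, and 19.1 CPM in control cells, from 3 UMIs in surface epithelium-like cells. Other genes that lead cluster 6 were also found at low levels outside it: in PS-MP granulosa-like cells Edn2 stood at 0.934% of its cluster 6 level and the median of the 9 other leading genes at 0.887% of theirs. In control granulosa-like cells these shares, also taken of the PS-MP cluster 6 levels, were 0.533% and 0.431%, so they do not gauge a source within the control library. In PS-MP stromal fibroblast-like cells they were 0.833% and 1.33%, and in PS-MP blood endothelial-like cells 3.23% and 1.95%. Luteal and steroidogenic genes were also higher there, with 6 of 8 measured called higher in PS-MP blood endothelial-like cells, against 2.25% of all genes measured in the class, where Cyp11a1, which makes pregnenolone from cholesterol, stood at 147.6 CPM in PS-MP cells and at 56.3 CPM in control cells. The part of carried-over RNA in the low Edn2 levels was not tested.

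**Figure D2:**
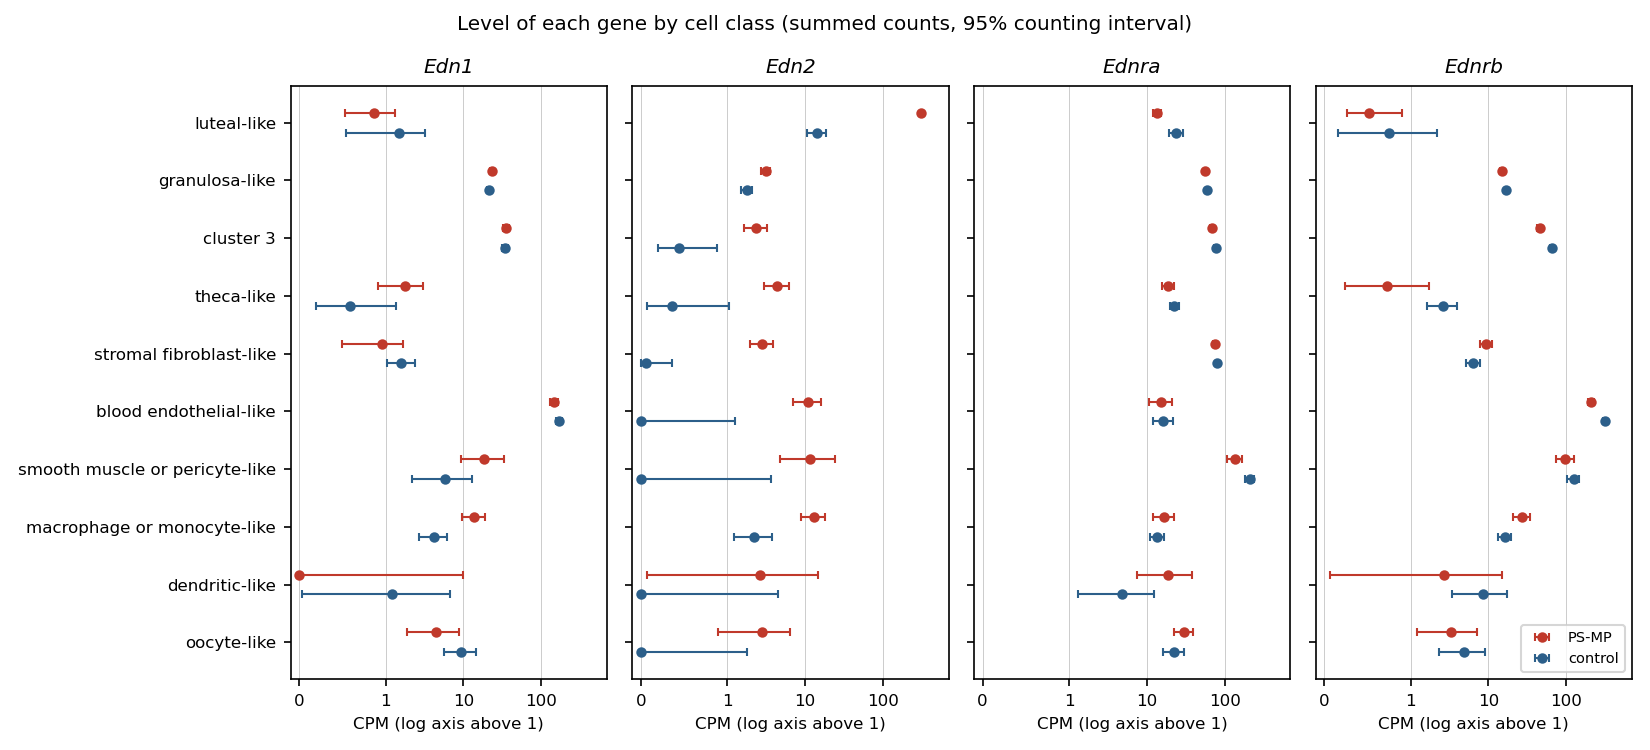
Level of each endothelin gene in CPM (x axis, log above 1) by cell class and library; bars are 95% counting intervals. Edn2 reaches 311.4 CPM in PS-MP luteal-like cells and 14.1 CPM in control luteal-like cells, and Edn1 and Ednrb are highest in blood endothelial-like cells of both libraries.

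Edn1 had its highest level in blood endothelial-like cells but most of its UMIs in follicle cells. In endothelial-like cells it stood at 145.4 CPM (130.0 to 162.1, 324 UMIs) in PS-MP cells and at 170.7 CPM (156.2 to 186.3, 506 UMIs) in control cells, a ratio of 0.851 (0.738 to 0.981) that came to 1.00 when CPM was averaged over cells. An Edn1 UMI was found in 32.3% of the 313 PS-MP endothelial-like cells and in 31.1% of the 350 control ones, at median depths of 5970 and 6931.5 UMIs. Stromal fibroblast-like cells served as the background, with shares of 0.58% of PS-MP cells and 0.88% of control cells at median depths of 7498 and 8407.5 UMIs. Cluster 3 came next in order, at 35.5 CPM (32.6 to 38.6) in PS-MP cells and 34.3 CPM (31.7 to 37.2) in control cells, and granulosa-like cells followed at 23.2 CPM (22.2 to 24.4) in PS-MP cells and 21.1 CPM (20.2 to 22.1) in control cells. The granulosa-like ratio was 1.10 (1.03 to 1.18) and that of cluster 3 was 1.03 (0.92 to 1.16), so neither came near 1.5-fold. In stromal, luteal-like and theca-like cells Edn1 did not exceed 1.75 CPM in either library. The other classes held few Edn1 molecules. Macrophage or monocyte-like cells had 13.7 CPM (9.58 to 19.1, 35 UMIs) in PS-MP cells and 4.15 CPM (2.71 to 6.08, 26 UMIs) in control cells, and smooth muscle or pericyte-like cells had 18.4 CPM from 11 UMIs in PS-MP cells and 5.87 CPM from 6 UMIs in control cells. Both were below the 20 CPM needed for a call. By numbers of molecules, granulosa-like cells held 63.3% of the PS-MP Edn1 UMIs and 61.3% of the control ones, cluster 3 held 20.8% and 19.4%, and endothelial-like cells held 12.1% and 15.9% while making up 2.17% and 2.41% of the cells.

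**Figure D3:**
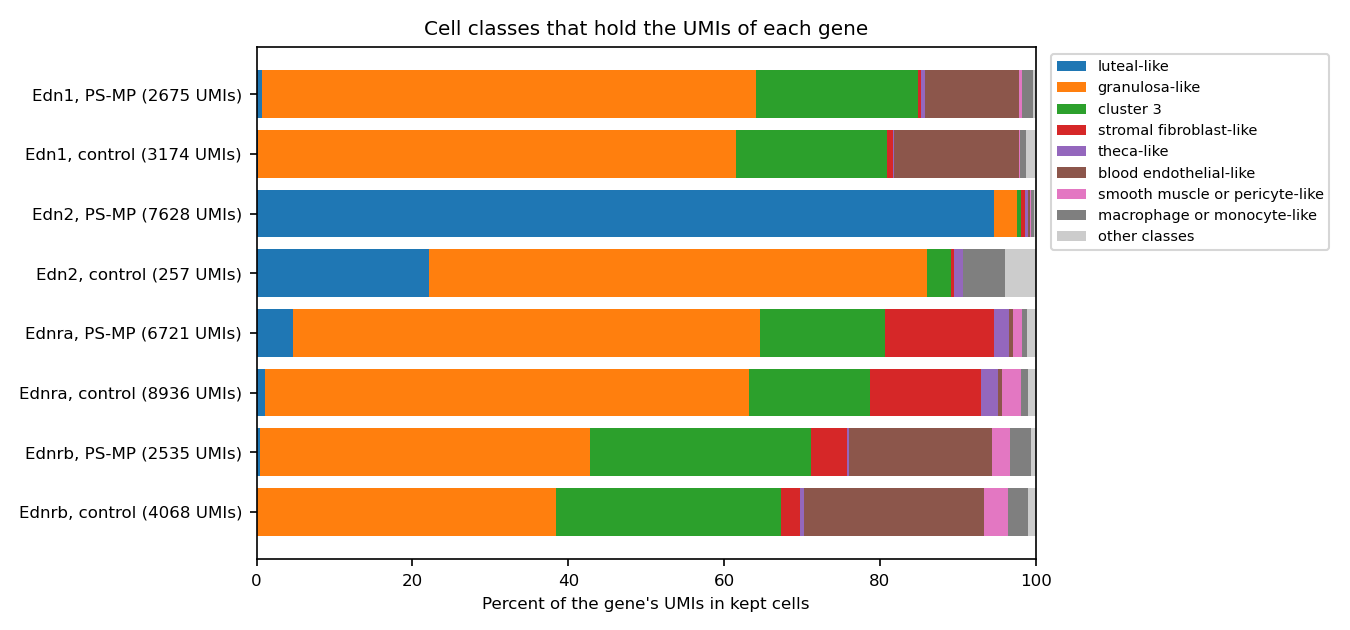
Percent of each gene's UMIs (x axis) held by each cell class, for each gene and library. Edn1, Ednra and Ednrb UMIs lie mostly in granulosa-like cells and cluster 3 in both libraries; luteal-like cells hold 94.7% of Edn2 UMIs in PS-MP cells and 22.2% in control cells.

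The endothelial-like cells were clustered again, and Edn1 followed the arterial-like cells. In sub-cluster 0, which reached 20 CPM in 6 of 6 arterial markers, Edn1 stood at 379.4 CPM (322.9 to 442.9) in 70 PS-MP cells and at 457.9 CPM (407.1 to 513.4) in 82 control cells. In sub-cluster 5, also arterial-like, it stood at 527.0 CPM (410.0 to 666.9) in 22 PS-MP cells and at 368.0 CPM (289.4 to 461.2) in 27 control cells. The capillary-or-tip-like sub-cluster 2 had 10.3 CPM in 61 PS-MP cells and 18.4 CPM in 59 control cells. Thus the arterial-like sub-clusters were far above the capillary-or-tip-like one in both libraries, whereas the ratio of the libraries ran opposite ways in the arterial-like pair, 0.829 (0.679 to 1.008) in sub-cluster 0 and 1.43 (1.02 to 2.01) in sub-cluster 5. After thinning, Gja5, the connexin of arterial endothelium, stood at 289.7 CPM in PS-MP cells with an Edn1 UMI and at 88.5 CPM in those without, and at 332.8 and 98.1 CPM in control cells.

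Among granulosa-like clusters Edn1 was highest in cluster 0, at 46.3 CPM (42.9 to 49.8) in PS-MP cells and 47.9 CPM (45.0 to 51.0) in control cells. Cluster 2, the dividing granulosa-like cells, followed at 27.9 CPM (25.8 to 30.2) in PS-MP cells and 25.9 CPM (23.9 to 27.9) in control cells. In these clusters the libraries' intervals overlapped. Cluster 1, which has the most Inhba and Cyp19a1 mRNA, was low but differed, at 12.7 CPM (11.01 to 14.52) in PS-MP cells and 6.75 CPM (5.72 to 7.91) in control cells, a ratio of 1.88 (1.52 to 2.33). Within cluster 2, cells with and without a thinned Edn1 UMI were compared for a few genes, named after their values were seen. Hsd3b1, which makes progesterone, stood at 680.2 CPM in the 113 PS-MP cells with Edn1 and at 1724 CPM in those without, and at 385.1 and 1660 CPM in control cells. Inhba, the activin subunit, stood at 1135 CPM with and 2439 CPM without Edn1 in PS-MP cells, and at 1075 and 4845 CPM in control cells. Cyp19a1, the aromatase, stood at 53.1 and 134.7 CPM in PS-MP cells and at 52.8 and 222.7 CPM in control cells. Top2a had overlapping intervals in cells with and without Edn1, at 1239 and 1258 CPM in PS-MP cells and at 1385 and 1409 CPM in control cells. Of 7136 genes, 1.54% were higher and 2.27% lower by at least 1.5-fold in both libraries in that contrast, and cells were chosen by their Edn1 count.

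Ednra was the most widely found of the receptors. Its level was highest in smooth muscle or pericyte-like cells, at 135.5 CPM (107.6 to 168.4, 81 UMIs) in 90 PS-MP cells and 211.1 CPM (183.9 to 241.3, 216 UMIs) in 145 control cells. The ratio was 0.642 (0.491 to 0.832), and 0.611 to 0.821 over 10 other settings, not all of them past 1.5-fold. It was 0.821 (0.580 to 1.150) after thinning and 0.721 (0.503 to 1.017) at the 10% mitochondrial limit, intervals that included 1. In this class 18.4% of the 7645 genes at 20 CPM or more were called in either direction, and 9.55% as lower. Ednra was the only endothelin gene called there. An Ednra UMI was found in 53.3% (42.5 to 63.9) of PS-MP cells and 67.6% (59.3 to 75.1) of control cells of the class, at median depths of 5290 and 5990 UMIs. Dendritic-like cells, taken as background, had shares of 6.25% of PS-MP cells and 3.03% of control cells at median depths of 5260 and 5560.5 UMIs. The intervals of the CPM levels did not overlap, while those of the shares did.

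The smooth muscle or pericyte-like cells were clustered again in the same way. Sub-cluster 0 reached 20 CPM in 5 of 5 pericyte markers but was led by genes such as Col3a1 and Col15a1, which stromal cells also make, so it is not named. It had an Ednra level of 193.1 CPM in 29 PS-MP cells and 308.0 CPM in 50 control cells, a ratio of 0.627 (0.410 to 0.936). In the vascular smooth muscle-like sub-cluster 2 the level was 113.6 CPM in 21 PS-MP cells and 194.1 CPM in 35 control cells, a ratio of 0.586 (0.279 to 1.141). Sub-cluster 1, also not named, showed nearly equal levels of 189.5 CPM in PS-MP cells and 189.8 CPM in control cells. Sub-cluster 3 was led by granulosa genes, held 15 PS-MP cells and 14 control cells, and had a ratio of 0.411 (0.178 to 0.876). Without sub-cluster 3 the Ednra ratio of the class was 0.726 (0.544 to 0.958), which is short of a call.

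Stromal fibroblast-like cells came next for Ednra, at 74.6 CPM (70.0 to 79.6) in PS-MP cells and 80.9 CPM (76.5 to 85.5) in control cells, a ratio of 0.923 (0.847 to 1.005). Cluster 3 had 68.5 CPM (64.5 to 72.8) in PS-MP cells and 77.7 CPM (73.6 to 81.9) in control cells, a ratio of 0.883 (0.814 to 0.956). Granulosa-like cells had 55.4 CPM (53.7 to 57.1) in PS-MP cells and 60.2 CPM (58.6 to 61.8) in control cells, a ratio of 0.920 (0.883 to 0.958). Stroma and cluster 3 could not be ordered within either library, since their intervals overlapped, and granulosa-like cells were below both. None of these ratios approached 1.5-fold, beside 1.11% of stromal, 0.719% of cluster 3 and 0.597% of granulosa-like genes called in either direction. Theca-like cells, the steroid-making layer around the follicle, had less, at 18.9 CPM (15.7 to 22.4) in PS-MP cells and 22.7 CPM (19.6 to 26.1) in control cells, a ratio of 0.831 (0.660 to 1.045), where 1.89% of genes were called. Luteal-like cells had 13.5 CPM (12.1 to 15.1) in PS-MP cells and 23.8 CPM (19.3 to 29.1) in control cells. That gap between luteal-like cells also followed the clusters, since cluster 6 had 12.3 CPM in PS-MP cells, and cluster 11 had 27.5 CPM (20.5 to 36.2) in PS-MP cells and 24.4 CPM (19.7 to 29.8) in control cells. Oocyte-like cells had 29.8 CPM in PS-MP cells and 22.3 CPM in control cells, and macrophages, blood endothelial-like cells and dendritic-like cells did not exceed 18.5 CPM in either library. T, NK or innate lymphoid-like cells were few, with 12 Ednra UMIs among 396927 in 48 PS-MP cells and 36 among 870208 in 98 control cells. That put their level above that of theca-like cells in both libraries. In these classes the intervals of the libraries overlapped. Over all cells the ratio for Ednra was 0.824 (0.798 to 0.850), and without cluster 6 it was 0.934 (0.905 to 0.965).

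Ednrb was highest in blood endothelial-like cells and was lower there in the PS-MP library. It stood at 209.1 CPM (190.5 to 228.9, 466 UMIs) in PS-MP cells and at 316.5 CPM (296.5 to 337.4, 938 UMIs) in control cells, a ratio of 0.661 (0.590 to 0.739). It was the only endothelin gene called in this class, just past 1.5-fold (0.597 to 0.688 over 10 other settings), where 5.57% of the 7302 genes at 20 CPM or more were called in either direction and 3.33% were called lower. An Ednrb UMI was found in 42.2% (36.6 to 47.9) of PS-MP and 54.6% (49.2 to 59.9) of control endothelial-like cells, and after thinning in 31.6% and 41.4%. Theca-like cells, as background, had shares of 0.40% of PS-MP cells and 1.77% of control cells, at median depths of 7956 and 9788 UMIs against 5970 and 6931.5 UMIs in endothelial-like cells. The 250 bases before the Ednrb start (RefSeq, GRCm38.p6, chr14:103843702-103843951, minus strand, written 5′ to 3′ along the gene) are shown for comparison with Edn2, with motif matches in capitals.

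Ednrb: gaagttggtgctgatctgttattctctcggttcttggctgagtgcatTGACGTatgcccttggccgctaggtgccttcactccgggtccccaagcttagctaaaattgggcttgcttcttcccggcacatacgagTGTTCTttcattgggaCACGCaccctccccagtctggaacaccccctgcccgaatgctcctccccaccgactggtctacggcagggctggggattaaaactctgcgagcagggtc

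The matches were TGACGT and TGTTCT on the forward strand, 203 to 198 and 115 to 110 bases before the start, and GCGTG on the reverse strand, 99 to 95 bases before it. TGACGT was held by 6.47% of all 32851 promoters and TGTTCT by 16.1%. The same windows of Edn1 and Ednra held no match to any of the motifs searched.

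Within the endothelium Ednrb was highest in sub-clusters 1, 2 and 3, where Edn1 was low. The capillary-or-tip-like sub-cluster 2, led by genes that include Esm1, a tip cell gene, and Cd300lg, a capillary gene, had 285.6 CPM (234.9 to 343.9) in PS-MP cells and 714.2 CPM (637.1 to 798.2) in control cells. Its ratio, 0.400 (0.319 to 0.498), was further from 1 than that of the whole class. Sub-cluster 1, led by genes that include the adhesion molecules Selp and Sele, had 385.2 CPM (316.8 to 463.8) in 50 PS-MP cells and 484.2 CPM (429.8 to 543.5) in 80 control cells, a ratio of 0.796 (0.633 to 0.994). The dividing sub-cluster 3 had 381.2 CPM (327.7 to 441.0) in 50 PS-MP cells and 414.3 CPM (354.4 to 481.5) in 38 control cells, with overlapping intervals. Arterial-like sub-cluster 0 was lower, at 71.1 CPM (48.0 to 101.5) in PS-MP cells and 96.6 CPM (74.0 to 123.8) in control cells. In arterial-like sub-cluster 5 it stood at 22.9 CPM from 3 UMIs in PS-MP cells and at 176.6 CPM from 36 UMIs in control cells, a ratio of 0.130 (0.026 to 0.411). Sub-cluster 7 was small and lymphatic-like, with 6 of 6 lymphatic markers at 20 CPM or more, and was kept in the class. It stood at 26.0 CPM from 1 UMI in 5 PS-MP cells and 223.6 CPM from 14 UMIs in 9 control cells, a ratio of 0.116 (0.003 to 0.764). Sub-cluster 4, led by granulosa genes, had 60.4 CPM in PS-MP cells and 71.7 CPM in control cells, and sub-cluster 6, led by smooth muscle genes, had 60.5 and 129.4 CPM, so that cells with markers of another class were low in Ednrb too. In thinned counts, UMIs of both genes were found in 7 PS-MP cells, out of 71 with Edn1 and 99 with Ednrb, and in 18 control cells, out of 85 with Edn1 and 145 with Ednrb. The product of the shares of cells with each gene would give 22.5 and 35.2 cells. In granulosa-like cells both were found in 23 PS-MP cells and 27 control cells, against 11.8 and 14.4 from the product. In the endothelial-like cells Gja5 stood at 20.2 CPM in PS-MP cells with an Ednrb UMI and at 186.9 CPM in those without, and at 43.3 and 234.1 CPM in control cells. Cd300lg ran the other way, at 167.4 and 81.4 CPM in PS-MP cells and at 167.5 and 43.2 CPM in control cells.

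**Figure D4:**
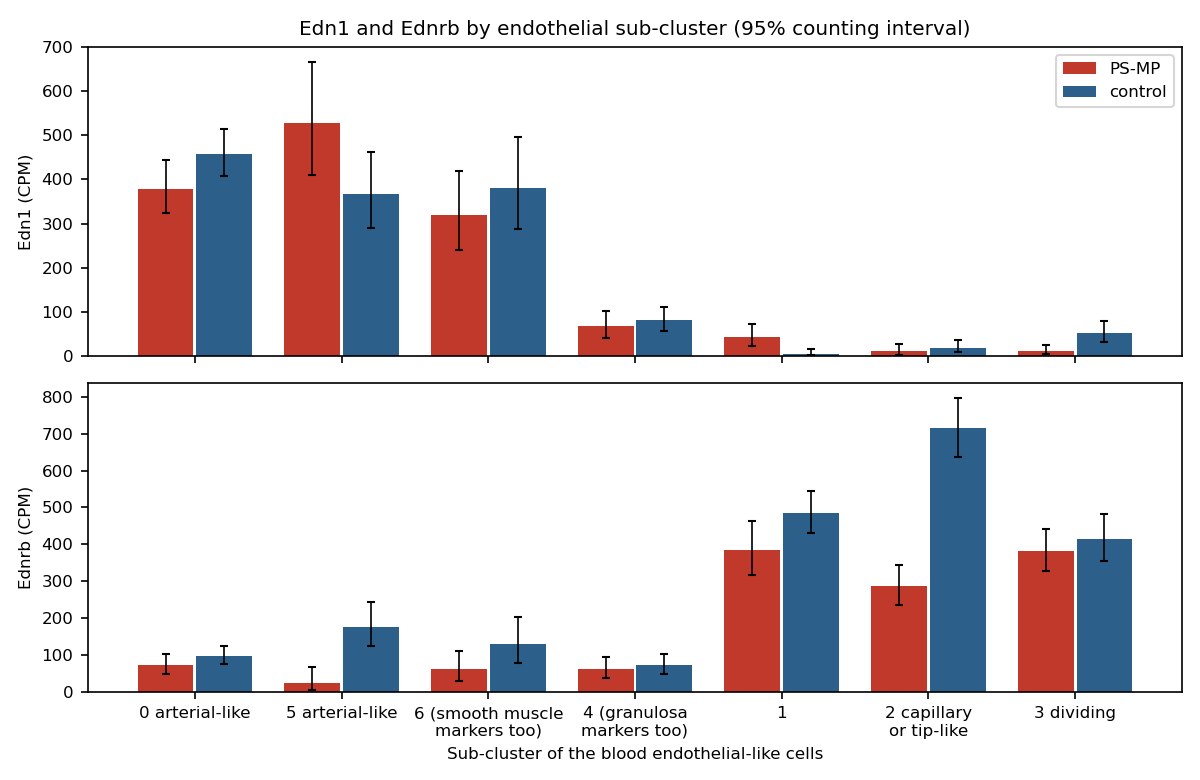
Edn1 (top) and Ednrb (bottom) in CPM (y axis) in the endothelial sub-clusters (x axis), with 95% counting intervals, PS-MP left of control. Edn1 is high in the arterial-like sub-clusters and in sub-cluster 6, and Ednrb in sub-clusters 1, 2 and 3; the widest Ednrb gap between libraries in CPM is in the capillary-or-tip-like cells, at 285.6 CPM in PS-MP cells and 714.2 CPM in control cells.

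In follicle cells Ednrb was centred on cluster 3, where it was among the 10 leading genes although left out of the clustering. There it stood at 45.8 CPM (42.5 to 49.3) in PS-MP cells and at 65.4 CPM (61.7 to 69.3) in control cells, a ratio of 0.700 (0.637 to 0.769), short of the size of a call. Granulosa-like cells had 14.7 CPM (13.9 to 15.7) in PS-MP cells and 16.9 CPM (16.1 to 17.8) in control cells. Among them the dividing cluster 2 had the most, 24.7 CPM (22.7 to 26.8) in PS-MP cells and 32.3 CPM (30.2 to 34.6) in control cells, and cluster 8 the least, at 1.43 CPM in PS-MP cells and 0.99 CPM in control cells. The libraries did not differ in 1 direction in every cluster, since cluster 1 had a ratio of 0.559 (0.439 to 0.707) and cluster 5, led by Amh, anti-Müllerian hormone, a ratio of 1.15 (0.96 to 1.37). In cluster 2, cells with an Ednrb UMI were low in Hsd3b1, at 375.6 CPM against 1754 CPM in cells without in the PS-MP library, and at 442.8 against 1703 CPM in the control library. They were also low in Cyp19a1, at 29.95 against 137.0 CPM in PS-MP cells and 66.2 against 227.8 CPM in control cells. In cluster 3, Hsd3b1 stood at 278.4 CPM with and 615.8 CPM without Ednrb in PS-MP cells and at 167.5 and 384.5 CPM in control cells. By the same contrast 1.79% of genes in cluster 2 and 0.616% in cluster 3 were lower in both libraries. In cluster 3 0.742% were higher, led by Top2a. It stood at 285.7 CPM with and 152.0 CPM without Ednrb in PS-MP cells, and at 273.1 and 132.1 CPM in control cells.

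Ednrb ran the other way in macrophages, with the higher level in PS-MP cells. Macrophage or monocyte-like cells had 26.7 CPM (20.7 to 33.9, 68 UMIs) in 352 PS-MP cells and 16.3 CPM (13.3 to 19.8, 102 UMIs) in 741 control cells, a ratio of 1.64 (1.19 to 2.25), in a class where 5.47% of genes were called and 3.89% were called higher. The macrophages with an Ednrb UMI differed from the others in genes that were picked after their values were seen. Arg1, the arginase of activated macrophages, stood at 714.3 CPM in the 28 PS-MP cells with Ednrb and at 125.2 CPM in those without, and at 2278 and 490.6 CPM in control cells. Fn1, fibronectin, stood at 2082 and 530.0 CPM in PS-MP cells and at 2767 and 677.9 CPM in control cells. C1qa, a complement gene of resident macrophages, was lower with Ednrb, at 469.4 and 895.9 CPM in PS-MP cells and at 646.6 and 894.9 CPM in control cells. Igkc, an antibody light chain made by B lineage cells, was also lower with Ednrb, at 10.2 CPM with and 6015 CPM without Ednrb in PS-MP cells and at 172.9 and 2329 CPM in control cells. Igkc was also among the 10 leading genes of this class, whose neutrophil marker score of 0.855 came close to its macrophage score of 0.942. The cells without Ednrb thus held more mRNA of another cell type, and the part of that mRNA in these differences was not tested. Of 6795 genes, 5.81% were higher and 7.2% lower in both libraries in this contrast. The summed granulosa markers stood at 2367 CPM with and 2376 CPM without Ednrb in PS-MP cells, and at 1737 and 2632 CPM in control cells. The part of follicle cell RNA in the Ednrb levels of this class was not tested.

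Stromal fibroblast-like cells had 9.29 CPM (7.68 to 11.1) of Ednrb in PS-MP cells and 6.37 CPM (5.18 to 7.75) in control cells, a ratio of 1.46 (1.11 to 1.92), which turned to 0.689 when each cell was classed by its own marker score. Part of that came from a small group of cells: sub-cluster 7, led by the smooth muscle genes Myh11 and Actg2, had 450.6 CPM from 41 UMIs in 12 PS-MP cells and 560.1 CPM from 18 UMIs in 6 control cells. Without sub-cluster 7 the stromal ratio was 1.16 (0.839 to 1.61), an interval that included 1. In smooth muscle or pericyte-like cells Ednrb stood at 97.0 CPM (73.7 to 125.4) in PS-MP cells and at 124.1 CPM (103.5 to 147.7) in control cells, with overlapping intervals. It was uneven there as well, at 336.0 CPM in PS-MP cells and 419.4 CPM in control cells of the unnamed sub-cluster 1, and at 23.4 and 20.9 CPM in sub-cluster 0. T, NK or innate lymphoid-like cells held 9 Ednrb UMIs among 396927 in 48 PS-MP cells and 24 among 870208 in 98 control cells. Luteal-like and theca-like cells were at 0.52 and 0.73 CPM in PS-MP cells and at 0.74 and 2.60 CPM in control cells, and oocyte-like cells at 3.31 CPM in PS-MP cells and 4.85 CPM in control cells. The cells with the most Edn2 therefore had almost no Ednrb mRNA, and their Ednra level was among the lower ones.

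Enzymes that make and remove endothelins were measured as a list of 8 genes. Ece1, the main endothelin-converting enzyme, was broadly present, at 137.2 CPM in PS-MP cells and 135.6 CPM in control cells over all classes. In luteal-like cells it stood at 175.4 CPM (4067 UMIs) in PS-MP cells and 74.4 CPM (300 UMIs) in control cells, a ratio of 2.36 (2.10 to 2.66). Ctsa, a lysosomal peptidase that degrades endothelin, was highest in macrophages, at 531.8 CPM in PS-MP cells and 583.7 CPM in control cells, and in luteal-like cells had a ratio of 1.85 (1.66 to 2.07). Mme, the neutral endopeptidase neprilysin, ran opposite in luteal-like cells, at 3.58 CPM in PS-MP cells and 49.6 CPM in control cells. In luteal-like cells, then, all 3 measured genes of this list were called, 2 higher and 1 lower, in a class where 13.7% of all genes were called higher and 10.1% lower, and as with Edn2 the cells came from different clusters: in cluster 11 alone Ece1 had 59.9 CPM in PS-MP cells and 73.5 CPM in control cells, a ratio of 0.815 (0.649 to 1.017). Also within cluster 11, 1 of 3 measured genes of the list was called lower, beside 6.01% of all genes. In granulosa-like, stromal, blood endothelial-like and smooth muscle or pericyte-like cells 2 genes were measured and 0 were called. The shares of all genes called in these classes were 0.597%, 1.11%, 5.57% and 18.4%. In theca-like cells 1 of 3 was called lower, beside 1.06% of genes, and in oocyte-like cells 1 of 2 was called higher, beside 2.87%. Edn3, the third endothelin, was highest in stromal fibroblast-like cells, at 4.92 CPM in PS-MP cells and 8.09 CPM in control cells, and Ece2, Ecel1, Kel and Cma1 were at or below 0.62 CPM over all cells of either library.

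In the classes where the receptors were highest, few of the listed genes downstream of them were called. In blood endothelial-like cells 22 of 24 G protein and signalling genes were measured, of which 0 were called higher and 1 lower, Rgs4, a brake on G protein signals, at 36.3 CPM in PS-MP cells and 61.7 CPM in control cells, in a class where 5.57% of genes were called. The list's median log2 ratio was −0.09, against −0.02 for all genes measured in the class. Of the nitric oxide and prostacyclin genes 5 were measured and 0 called, with Nos3, the endothelial nitric oxide synthase, at 225.7 CPM in PS-MP cells and 249.3 CPM in control cells. Of the contraction genes 12 were measured in this class, with 0 called higher and 1 lower, beside 3.33% of all genes called lower. In smooth muscle or pericyte-like cells all 15 contraction genes were measured and 0 were called, with a median log2 ratio of 0.12 against −0.01 for all genes. Acta2, smooth muscle actin, stood at 3906 CPM in PS-MP cells and 3082 CPM in control cells, and Gucy1a1, a subunit of the nitric oxide receptor, at 307.8 and 415.5 CPM. Of the signalling genes there, 20 were measured, 1 was called higher and 2 lower. Of the nitric oxide and prostacyclin genes there, 4 were measured, 1 was called higher and 0 lower. In this class 18.4% of genes were called. In luteal-like cells 7 of 11 hypoxia genes were called higher and 0 lower, against 13.7% of all genes called higher, led by Bnip3, a mitophagy gene, at 767.9 CPM in PS-MP cells and 179.3 CPM in control cells. Of the 5 measured progesterone receptor targets 3 were called higher there and 1 lower, with Adamts1 at 1337 CPM in PS-MP cells and 57.5 CPM in control cells, and of 8 other ovulation genes 6 were called higher and 0 lower. The median log2 ratios of these lists were 0.89, 0.87 and 1.31, against 0.04 for all genes of the class. These luteal-like counts again set cluster 6 against cluster 11 for the most part. Within cluster 11 alone 1 of 9 hypoxia genes was called higher and 0 lower, 1 of 4 progesterone receptor targets higher and 2 lower, and 1 of 6 other ovulation genes higher and 1 lower, with medians of 0.04, −0.60 and −0.02. In granulosa-like cells 0 of 10 hypoxia genes and 0 of 16 signalling genes were called, while 1 of 4 progesterone receptor targets, 2 of 5 other ovulation genes and 2 of 9 luteal and steroidogenic genes were called lower, against 0.543% of all genes.

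Genes whose levels followed the endothelin genes most closely were found by Pearson correlation of log2(CPM + 5) over 21 groups of at least 50 cells, each a class in a library, among 11667 genes; groups of 1 library share their animals and handling, and the values are descriptive. Closest to Edn1 was Adgrf5, an adhesion receptor of endothelium, at 0.961, followed by Fbp1 at 0.956, Sema3g at 0.944, Kcnj2 at 0.927 and Mfsd2a at 0.903. Closest to Edn2 were Timp4, an inhibitor of matrix proteases, at 0.935, Cldn18 at 0.912, Xpnpep2 at 0.911, Dmbt1 at 0.897 and Gm34093 at 0.888, in a pattern set by the PS-MP luteal-like group. Closest to Ednra were Tgfb3, a transforming growth factor, at 0.923, Heyl, a Notch target, at 0.909, Triqk at 0.904, Ctdspl at 0.889 and Gucy1a1 at 0.877. Closest to Ednrb were Sema6d at 0.913, Epas1, the hypoxia-inducible factor of endothelium, at 0.912, Elk3 at 0.906, Raph1 at 0.880 and Maml2 at 0.869, and the correlation of Edn1 with Ednrb was 0.844. Edn1 and Ednrb were both highest in blood endothelial-like cells, and a correlation over classes does not show that the same cells hold both.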

How the data were processed

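Each library was deposited by the authors as a matrix of UMI counts per gene and cell (unit counts, whole numbers; not normalized). Per the submitters' processing notes the genome build was GRCm39 and Seurat was used; no aligner or counter is named in the sources used. UMIs are counted once per molecule, so intervals cover counting error only and miss differences between mice. Cells with at least 500 genes and at most 25% mitochondrial counts were kept, doublets called by scrublet in scanpy 1.11.5 were left out (358 PS-MP cells and 315 control cells), and the rest were clustered on 2000 variable genes and 30 principal components by the Leiden method at resolution 0.5. A cluster was named when at least 3 markers of a class reached 20 CPM, its marker score was at least 0.15, and its 10 leading genes held no more markers of another class than of its own. The members and the gene lists were chosen with earlier results of these data known. For each class and library the counts were added up, and CPM was given with an exact Poisson interval, shares with a Clopper-Pearson interval and ratios with an exact conditional binomial interval, all at 95%. With 1 library per group no test was run. Depth was also made equal by thinning each cell to 3500 UMIs, which left out 0 cells. Besides the endothelin genes, the text names list members with the largest ratios in a class, class markers, genes that lead a cluster, and the 5 genes most like each endothelin gene; genes compared between cells with and without a UMI were named after their values were seen. Coverage of the ratio intervals was computed on simulated Poisson counts. It was 95.5% for blood endothelial-like and 95.1% for stromal fibroblast-like cells. The simulation had no spread between cells or mice, so this coverage was set by its design and does not bear on such spread. Alternatives were a mitochondrial limit of 10%, doublets kept, other resolutions, the endothelin genes allowed in clustering, cells classed by their own marker scores, means over cells, thinning, and other limits on level and fold. Promoter sequences were taken by gene symbol from a RefSeq table of build GRCm38.p6, and 4 of 4 matched. The values of 1 marker gene are not reported here.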

Additional observations from a re-analysis of the deposited data

Results flagged for a closer look

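Ednrb ran in opposite directions in different classes: its PS-MP to control ratio was 1.64 in macrophage or monocyte-like cells, against 0.700 in cluster 3 cells and 0.661 in blood endothelial-like cells, each with a counting interval that excluded 1. Edn1 likewise had a ratio of 1.10 in granulosa-like cells and of 0.851 in blood endothelial-like cells. The endothelial-like Edn1 ratio was 1.00 as a mean over cells and 0.952 (0.769 to 1.177) after thinning, an interval that included 1. With 1 library per group, neither difference between classes was tested.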

How the results depend on the processing

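No paired analysis was possible because each group has 1 library, and for the same reason no replicate could be left out. Over 8 other settings of each of the 9 ratios, 64 of 72 values kept their side of 1 and lay within the counting interval. The exceptions were as follows. The Edn2 ratio in all cells (32.5) was 58.9 with at most 10% mitochondrial counts, 28.2 after thinning and 2.57 without cluster 6. In luteal-like cells (22.0) it was 31.8 with each cell classed by its own marker score and 3.83 without cluster 6, and in granulosa-like cells (1.75) 2.42 with own marker scores and 1.30 after thinning. The Edn1 ratio in blood endothelial-like cells (0.851) was 1.00 as a mean over cells, the Ednra ratio in theca-like cells (0.831) was 0.610 at the 10% limit, and the Ednrb ratio in stromal fibroblast-like cells (1.46) was 0.689 with own marker scores; apart from the cluster left out, the cause was not tested. Leaving out clusters and sub-clusters was chosen after seeing the data. The Ednrb ratio in blood endothelial-like cells stayed between 0.597 and 0.688 in 10 alternatives, and so on either side of 1.5-fold.

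Counts of called genes depended on the limits. At 5 CPM, at 50 CPM and at 2-fold they were 137, 21 and 9 in granulosa-like cells (44), 271, 44 and 20 in stromal fibroblast-like cells (79), 3019, 947 and 803 in luteal-like cells (1752), 564, 45 and 29 in theca-like cells (135), 1426, 116 and 58 in blood endothelial-like cells (407), and 3420, 414 and 418 in smooth muscle or pericyte-like cells (1405). At the 10% mitochondrial limit they were 268 in theca-like, 662 in blood endothelial-like and 2505 in smooth muscle or pericyte-like cells, and after thinning 248 in theca-like and 834 in blood endothelial-like cells. Classes of few cells have wide intervals, and the 9 control cells of cluster 6 allow only a lower bound for Edn2 within that cluster.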
